A study of Mus musculus with 8 samples.

Results

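Fatty acid desaturases place double bonds in fatty acids, and elongases lengthen them by adding carbon units. Of the genes for these enzymes, 10 were followed in the deposited table, namely Scd1, Scd2, Fads1, Fads2, Elovl1, Elovl2, Elovl4, Elovl5, Elovl6 and Elovl7. They were taken by gene symbol, with earlier results of these data known, and all 10 were found among 24942 genes listed. All 10 also passed the filter on low values (a mean normalized read count of at least 10 over the libraries), the lowest mean being 173, so that every member was tested. The libraries were made from ganglion cells of the mouse retina, the neurons whose axons form the optic nerve, taken at postnatal day 8. The cells were purified by immunopanning, in which antibody-coated dishes hold the wanted cells, and RNA was extracted from cells still on the dish. There were 4 libraries from NPC1-deficient mice and 4 from wildtype littermates, with no treatment in either group. The strain field reads balb/cnctr-npc1m1n/j for both groups, and mice homozygous for the spontaneous Npc1 mutation of that line lack functional NPC1, which moves cholesterol out of lysosomes, in every cell of the body and not in neurons alone. The labels do not say how many animals or which sexes went into a library, so a p-value here speaks of the spread among these 8 libraries, which may be technical.

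Most fatty acids built by a cell leave the synthase as saturated palmitate. The stearoyl-CoA desaturases SCD1 and SCD2 turn saturated acyl chains into monounsaturated ones, while FADS1 and FADS2 add double bonds to the polyunsaturated chains taken from the diet. Each elongase catalyses the first, rate-limiting condensation of the elongation cycle and prefers its own substrates, from palmitate (ELOVL6) through polyunsaturated chains (ELOVL5 and ELOVL2) to the very long chains that retina and brain membranes hold (ELOVL4 and ELOVL1). Many of these genes are known targets of SREBP transcription factors, the membrane-bound regulators that are released when sterol in the endoplasmic reticulum is low. The retina is among the tissues richest in docosahexaenoic acid, a product of this pathway.

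Library totals ran from 33030175 to 44050118 recovered reads. Wildtype libraries held 787 ± 69.1 and NPC1-deficient ones 85.9 ± 36.0 normalized reads of Npc1 (SD, n = 4 each), the latter ranging from 66.1 to 140 (exact two-sided permutation p = 0.0286, the smallest that 70 assignments allow). A second label field contradicts titles and descriptions in that it divides the libraries by number, 1 and 2 as wildtype and 3 and 4 as homozygous, whatever the title says. Groups here follow the titles, with which the Npc1 level goes. All 16 ganglion cell markers were present, summing to 400855 to 427503 over the wildtype libraries and to 428655 to 454780 over the NPC1-deficient ones. Marker RNA of most other cell types, but not of all, was lower in the NPC1-deficient group. All 14 rod markers had lower means there, their sum being 5987 to 13766 among wildtype libraries against 4139 to 5198. All 14 microglial markers did too, at 3936, 10779, 9181 and 16107 in wildtype 1 to 4, where the NPC1-deficient range was 2785 to 4555. Lower means were also found for 7 of 7 cone, 6 of 6 bipolar, 7 of 8 amacrine, 3 of 4 horizontal and 6 of 8 Mueller glia markers. All 4 endothelial markers found had lower means too. Fewer did among astrocyte (2 of 5), oligodendrocyte (2 of 4), pericyte and fibroblast (1 of 6) and pigment epithelium (1 of 4) markers. Sums did not overlap between groups for rods, horizontal cells (1175 to 2026 against 808 to 988) and Mueller glia (20474 to 21332 against 18500 to 19123). These were lower in NPC1-deficient libraries. The ganglion cell sum did not overlap either, and it was higher there. A sum follows its most abundant genes, mainly Calb1 for horizontal cells, Pax6 for amacrine cells, and Glul and Dkk3 for Mueller glia. Of the Mueller glia genes, Dkk3 overlapped between groups (8073 to 8712 in wildtype against 7771 to 8899). Apoe did not, at 1340 to 3143 against 639 to 1018. As a mean of log2(value + 1) over the list, horizontal cells overlapped (4.69 to 6.07 against 4.84 to 5.72). By that mean rods (7.72 to 8.99 against 7.14 to 7.59) did not overlap. Neither did Mueller glia (8.85 to 9.41 against 8.65 to 8.83) and amacrine cells (8.64 to 9.36 against 7.57 to 8.45). Ganglion cells overlapped by it (12.79 to 12.89 against 12.75 to 12.90). No rod, microglial or ganglion cell marker was at 0 in every library, and in bulk RNA fewer cells of a type and less RNA per cell cannot be told apart. Libraries also differed in sex-linked RNA. Summed over 4 Y-linked genes, wildtype 1 to 4 held 45.6, 3093, 1241 and 1508 normalized reads, against 2597 to 3788 in NPC1-deficient libraries. Xist, the RNA of the inactive X chromosome, stood at 595, 18.2, 238 and 164 in wildtype 1 to 4. In NPC1-deficient libraries Xist ran from 0 to 68.1, so sex-linked RNA differed between the groups as well. Whether cell mixture or sex has a part in the differences below was not tested beyond the values printed with them.

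The levels of the 10 genes spanned more than 2 orders of magnitude per length of exon. The plot of levels per length shows their order.

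**Figure D1:**
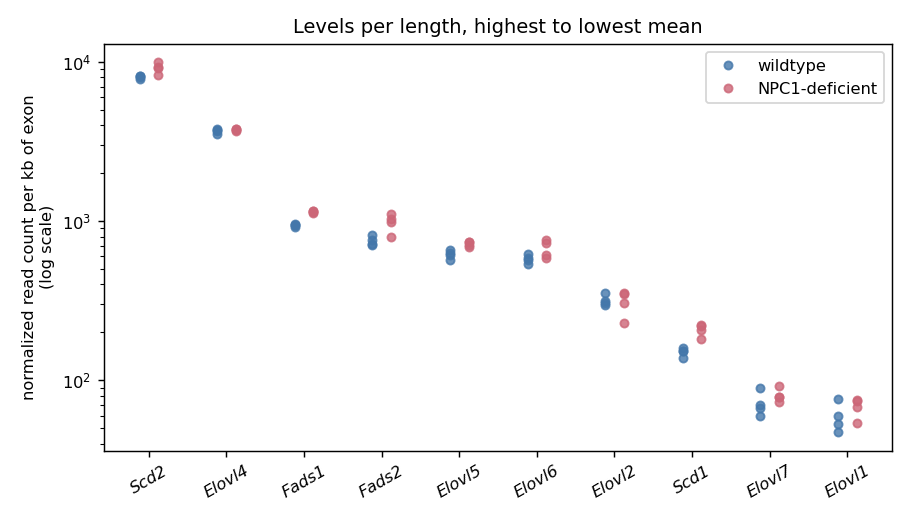
Normalized read count per kilobase of exon (log scale) of the 10 genes, ordered by the mean over 8 libraries, with 1 point per library in blue for wildtype and red for NPC1-deficient. Scd2 stood highest at a mean of 8599 per kilobase and Elovl1 lowest at 63.4.

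Scd2 led with 8599 ± 760 (SD, n = 8 libraries) normalized reads per kilobase, rank 208 of the 15235 genes tested that have an annotated length. Elovl4 followed with 3711 ± 85.6 per kilobase, at rank 554. Then came Fads1 (1045 ± 111 per kilobase), Fads2 (865 ± 155), Elovl5 (669 ± 58.9), Elovl6 (626 ± 80.5), Elovl2 (314 ± 41.6) and Scd1 (179 ± 33.8). Elovl7 (76.2 ± 11.02) and Elovl1 (63.4 ± 11.2) were the lowest of the 10. Each gene was above the next one in all 8 libraries, except that Elovl5 was above Elovl6 in 6 of 8, so these 2 neighbours did not differ beyond their spread. Stearoyl-CoA desaturase message was mostly that of Scd2, which made up 97.5% ± 0.128 (SD, n = 4) of the summed normalized reads of Scd1 to Scd4 in wildtype libraries. Among the 6 elongases, Elovl4 made up 69.1% ± 0.698 of the summed level per kilobase in wildtype and 66.9% ± 0.388 in NPC1-deficient libraries (SD, n = 4 each).

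Both stearoyl-CoA desaturase genes had higher counts in every NPC1-deficient library than in any wildtype library, and both front-end desaturase genes had higher means. Fold changes were positive for 9 of the 10 genes. Their median was 0.21 on the log2 scale, beside 0.0050 for all 15386 genes tested. With p-values adjusted over all genes tested, Fads1 was the single member called higher and 0 were called lower, where limma called 0.039% of all genes higher and 0.065% lower. At an unadjusted p under 0.05 there were 6 members (Scd1, Scd2, Fads1, Fads2, Elovl5 and Elovl6), all higher, where 2.39% of all genes were higher and 4.37% lower by that measure. With edgeR 1 member was called higher and 0 lower (0.039% and 0.065% of all genes), and with DESeq2 4 were called higher and 0 lower (0.312% and 1.29% of all genes). The groups did not overlap for 4 members (Scd1, Scd2, Fads1 and Elovl5), all higher in NPC1-deficient libraries, while 1.86% of all genes were without overlap in that direction and 2.41% in the other. The plot of counts by library gives each value.

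**Figure D2:**
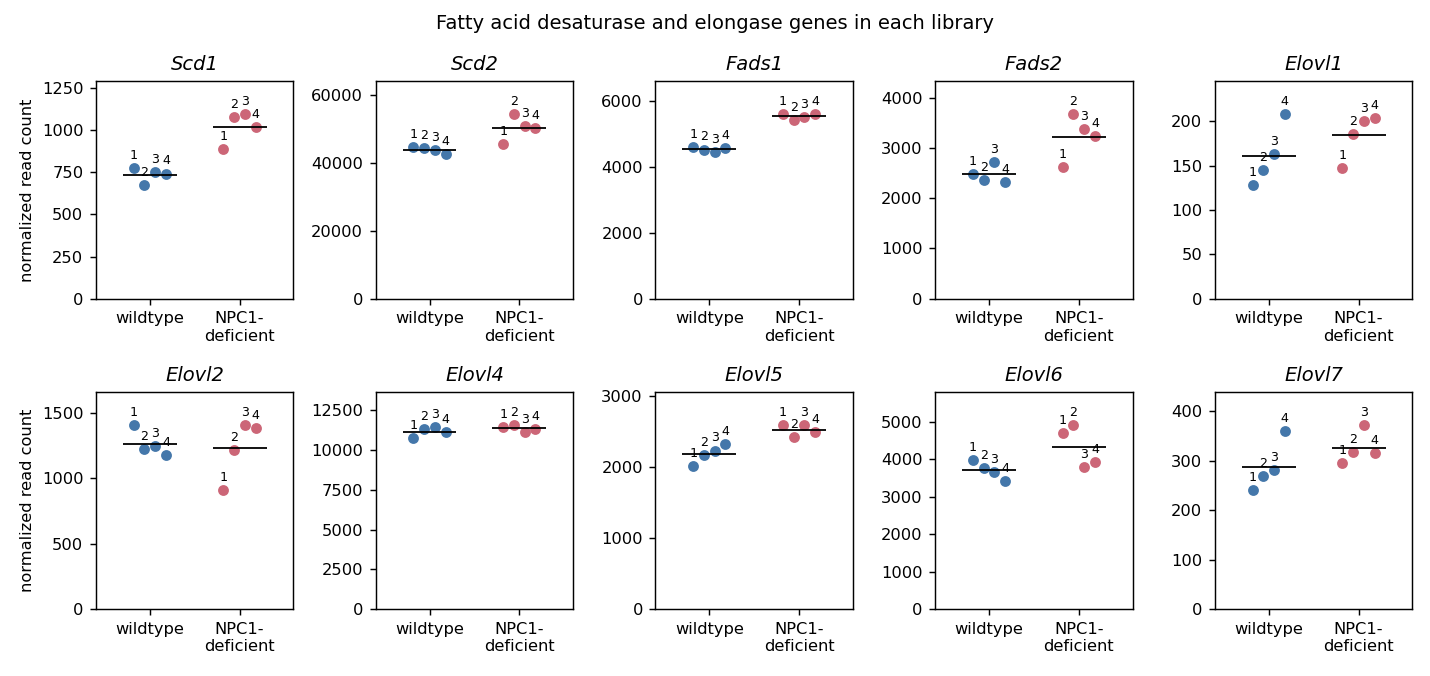
Normalized read count of each gene in the 4 wildtype (blue) and 4 NPC1-deficient (red) libraries, with the library number beside each point, the group mean as a line and each vertical axis starting at 0. The groups are apart for Scd1, Scd2, Fads1 and Elovl5, and Elovl4 lies at nearly the same level in all 8 libraries.

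Fads1 (ENSMUSG00000010663, chromosome 19, 10182888 to 10196877, plus strand, mm10) encodes the delta-5 desaturase, which makes arachidonic and eicosapentaenoic acid from their precursors. Its normalized read count was 4607, 4521, 4437 and 4576 in wildtype 1 to 4, against 5583, 5412, 5504 and 5590 in NPC1-deficient 1 to 4. Each group was tight and the groups lay well apart, with a coefficient of variation of 1.65% in wildtype and 1.502% in NPC1-deficient libraries. Fads1 rose from a mean of 4535 ± 74.8 to 5522 ± 82.97 (SD, n = 4), a log2 fold change of 0.28 (SE 0.04, 95% interval 0.19 to 0.38, limma adjusted p = 0.0312). The size hardly moved when libraries were left out, from 0.27 to 0.29, but the call was lost without wildtype 2 (limma adjusted p = 0.0993), wildtype 3 (0.122), NPC1-deficient 2 (0.0839), NPC1-deficient 3 (0.101) or NPC1-deficient 4 (0.0564). With the level of rod or microglial markers as a term the fold change was 0.30 (limma adjusted p = 0.168) or 0.27 (0.169).

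Fads2 (ENSMUSG00000024665, chromosome 19, 10062765 to 10101746, minus strand) encodes the delta-6 desaturase, which opens the route from the essential fatty acids to the longer polyunsaturated ones. It lies near Fads1 on the opposite strand, 81141 bases away, and the genes point away from each other. Its count was 2489, 2368, 2714 and 2324 in wildtype 1 to 4, against 2614, 3670, 3381 and 3237 in NPC1-deficient 1 to 4. Of the 4 NPC1-deficient libraries 3 lay above all wildtype ones, and NPC1-deficient 1 lay below wildtype 3. The log2 fold change was 0.37 (SE 0.09, 95% interval 0.17 to 0.58, limma adjusted p = 0.137), and without NPC1-deficient 1 it was 0.47 and passed (limma adjusted p = 0.0297). The ratio of Fads1 to Fads2 counts differed by -0.0901 on the log2 scale (exact two-sided permutation p = 0.514, adjusted 0.686 over 4 ratios), so a change of their balance was not detectable.

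Scd1 (ENSMUSG00000037071, chromosome 19, 44394455 to 44407879, minus strand) encodes the stearoyl-CoA desaturase best known from liver and fat. It had the largest fold change of the 10 genes. The count of Scd1 was 776, 676, 751 and 743 in wildtype 1 to 4, against 888, 1076, 1095 and 1018 in NPC1-deficient 1 to 4, without overlap. Its log2 fold change was 0.46 (SE 0.08, 95% interval 0.29 to 0.64), at a limma adjusted p of 0.0631. It passed without wildtype 1 (limma adjusted p = 0.0206) or without NPC1-deficient 1 (0.0213).

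Scd2 (ENSMUSG00000025203, chromosome 19, 44293674 to 44306864, plus strand) is the form that the developing brain uses, and its difference was smaller. The count was 44682, 44345, 43810 and 42497 in wildtype 1 to 4, against 45509, 54235, 50685 and 50103 in NPC1-deficient 1 to 4. NPC1-deficient 1 lay just above the highest wildtype library and the other 3 well above it. This came to a log2 fold change of 0.19 (SE 0.06, 95% interval 0.07 to 0.31, limma adjusted p = 0.257). In absolute terms Scd2 had the larger difference, 43834 ± 960 against 50133 ± 3583 normalized reads (SD, n = 4), where Scd1 had 737 ± 42.8 against 1019 ± 93.5.

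The balance of Scd1 and Scd2 was apart between the groups, though not past the adjusted threshold. The log2 ratio of their counts was -5.89 ± 0.0931 in wildtype and -5.62 ± 0.0643 in NPC1-deficient libraries (SD, n = 4), without overlap. The difference was 0.27, with an exact two-sided permutation p of 0.0286, which is the smallest that 70 assignments allow, and 0.114 after adjustment over 4 ratios. The share of Scd1 in the summed normalized reads of Scd1 to Scd4 was 1.64% ± 0.101 in wildtype and 1.98% ± 0.0877 in NPC1-deficient libraries (SD, n = 4). The 4 Scd genes stand in a cluster and are alike in sequence: of all 50-base stretches of annotated Scd1 transcripts 4.56% also occur in transcripts of other genes, mainly Scd3, Scd2 and Scd4, and 3.97% of those of Scd2 do. How the counting treated such reads is not given in the sources used here, so a small part of each count is uncertain.

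The plot of fold changes sets the 10 genes side by side, with the values within libraries 1 and 2 and within libraries 3 and 4.

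**Figure D3:**
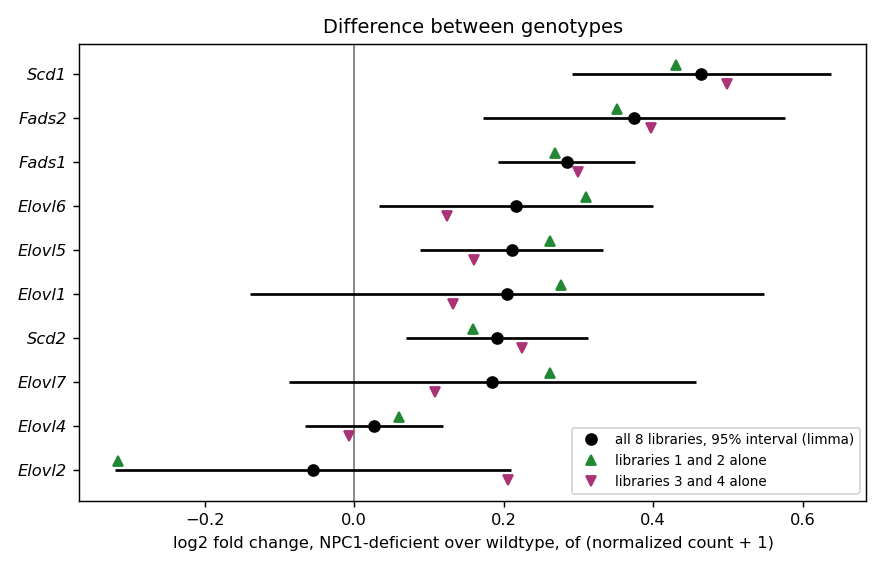
Log2 fold change of NPC1-deficient over wildtype libraries, taken on normalized count + 1, for each gene, with the limma estimate over 8 libraries as a black point, its 95% interval as a line, and the difference within libraries 1 and 2 (upward triangles) and within libraries 3 and 4 (downward triangles). Both triangles lie to the right of 0 for 8 genes, and those of Elovl2 lie on opposite sides at -0.32 and 0.21.

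Among the elongases of polyunsaturated chains, Elovl5 had higher counts in every NPC1-deficient library and Elovl2 was divided between them. Elovl5 (ENSMUSG00000032349, chromosome 9, 77917364 to 77984519, plus strand) encodes the enzyme that extends the products of FADS2. Its count was 2019, 2166, 2234 and 2321 in wildtype 1 to 4, against 2589, 2427, 2593 and 2495 in NPC1-deficient 1 to 4, without overlap. The log2 fold change was 0.21 (SE 0.06, 95% interval 0.09 to 0.33, limma adjusted p = 0.187), and DESeq2 called it (adjusted p = 0.0496) as it did Scd1, Fads1 and Fads2.

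Elovl2 (ENSMUSG00000021364, chromosome 13, 41182381 to 41220405, minus strand) carries the chain on to the precursors of docosahexaenoic acid. Its count was 1407, 1221, 1248 and 1175 in wildtype 1 to 4, against 910, 1218, 1408 and 1386 in NPC1-deficient 1 to 4. NPC1-deficient 1 was the lowest of all 8 libraries, while NPC1-deficient 3 and 4 were near wildtype 1, the highest wildtype library, and above the other 3. The log2 fold change was -0.0550 (SE 0.12, 95% interval -0.32 to 0.21, limma adjusted p = 0.995). Within libraries 1 and 2 it was -0.32 and among libraries 3 and 4 it was 0.21, and the interaction of genotype with this division was 0.52 (SE 0.17, limma adjusted p = 0.234). No member passed for that interaction, which was called for 0.078% of all genes. The log2 ratio of Elovl2 to Elovl5 was -0.79 ± 0.19 in wildtype and -1.06 ± 0.31 in NPC1-deficient libraries (SD, n = 4; exact two-sided permutation p = 0.143, adjusted 0.286 over 4 ratios).

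Elovl6 (ENSMUSG00000041220, chromosome 3, 129532355 to 129638495, plus strand), which extends palmitate to stearate and so feeds the stearoyl-CoA desaturases, was higher mainly in 2 libraries. Its count was 3986, 3780, 3658 and 3437 in wildtype 1 to 4, against 4710, 4920, 3792 and 3936 in NPC1-deficient 1 to 4. NPC1-deficient 1 and 2 were above all wildtype libraries and NPC1-deficient 3 and 4 were within their range. The log2 fold change was 0.22 (SE 0.08, 95% interval 0.03 to 0.40, limma adjusted p = 0.555). The ratio of Elovl6 to Scd2 differed by 0.0258 on the log2 scale (exact two-sided permutation p = 0.8286, adjusted 0.8286 over 4 ratios), and by -0.0622 without NPC1-deficient 1. Reads of Elovl6 are uncertain in small part, since 3.98% of its transcript 50-base stretches occur in other genes, mainly Gm11295.

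Elovl4 (ENSMUSG00000032262, chromosome 9, 83778692 to 83806277, minus strand), the elongase of very long chains whose mutation causes a macular dystrophy in humans, varied least of the 10 genes over the 8 libraries. Its count was 10714, 11301, 11419 and 11085 in wildtype 1 to 4, against 11390, 11546, 11115 and 11276 in NPC1-deficient 1 to 4, and the groups overlapped. The log2 fold change was 0.0263 (SE 0.04), and its 95% interval of -0.0658 to 0.12 leaves out a difference as large as that of Fads1. Its direction turned under quantile scaling and in a model holding the rod level, where it lay at -0.0031 and -0.0095. Photoreceptors are known for a high level of Elovl4, and the part of the rod difference in its count was not tested beyond that model.

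Elovl1 and Elovl7, elongases of saturated very long chains and of saturated and polyunsaturated long chains, were the most variable of the 10 genes in wildtype cells. Elovl1 (ENSMUSG00000006390, chromosome 4, 118428093 to 118432953, plus strand) had counts of 129, 145, 163 and 208 in wildtype 1 to 4, against 148, 186, 201 and 203 in NPC1-deficient 1 to 4. Elovl7 (ENSMUSG00000021696, chromosome 13, 108214404 to 108285683, plus strand) had counts of 241, 269, 281 and 359 in wildtype 1 to 4, against 295, 316, 372 and 315 in NPC1-deficient 1 to 4. For both genes the groups overlapped. The wildtype libraries with the lowest and highest counts, wildtype 1 and wildtype 4, were also those with the lowest and highest microglial level (3936 and 16107). In the opposite order, they had the highest and lowest rod level (13766 and 5987). The microglial order did not hold among NPC1-deficient libraries. There NPC1-deficient 1 had the lowest count of both genes but the highest microglial level (4555), and also the highest rod level (5198). NPC1-deficient 4 had the highest Elovl1 count but the lowest microglial level (2785). The log2 fold changes were 0.20 (SE 0.16, limma adjusted p = 0.955) for Elovl1 and 0.18 (SE 0.12, limma adjusted p = 0.927) for Elovl7. With the microglial level as a model term they were 0.44 and 0.46, and with the rod level as one they turned to -0.21 and -0.13, none past the threshold. Of the exonic length of Elovl1, 1.94% is shared with Cdc20 on the opposite strand, and the library kit does not mark strand.

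Libraries ranked differently from gene to gene, as the map of differences from the wildtype mean shows.

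**Figure D4:**
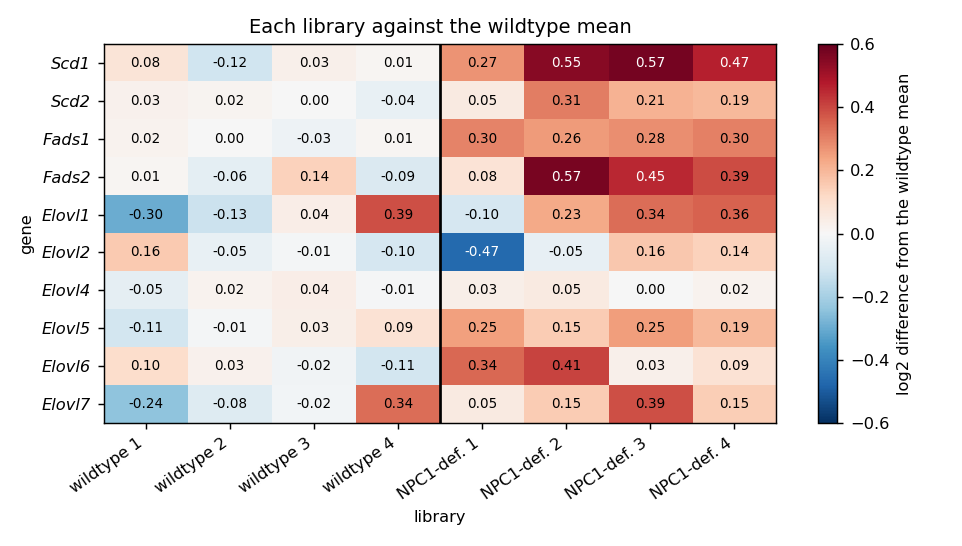
Difference of each library (columns) from the wildtype mean of the same gene (rows), in log2 of normalized count + 1, with red above and blue below the wildtype mean. In NPC1-deficient 1, Fads1 stood at 0.30 while Scd2 stood at 0.05 and Elovl2 at -0.47.

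NPC1-deficient 1 was the lowest library of its group for 6 of the 10 genes (Scd1, Scd2, Fads2, Elovl1, Elovl2 and Elovl7), though for Scd1 it was still above every wildtype library at 120% of the wildtype mean. The same library had Fads1 at 123% and Elovl6 at 127% of the wildtype mean. NPC1-deficient 1 was also the library of its group with the highest Npc1 count, 140 against 66.1 to 70.05 in the others. NPC1-deficient 2 was the highest for Scd2, Fads2, Elovl4 and Elovl6, with Fads2 at 148% of the wildtype mean. Of the wildtype libraries, wildtype 1 was the lowest for 4 genes and the highest for 5.

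The genes with profiles most like the desaturases over the 8 libraries were sought among 11224 others with a mean count of at least 100. These correlations rest on 8 libraries that share the difference between genotypes, and they are given as a description. Nearest to Fads1 were Nsdhl (r = 0.97), a sterol dehydrogenase, Nsg2 (0.97), a vesicle protein of neurons, and Mvk (0.96), the mevalonate kinase. Among the genes nearest to Scd1 was Dhcr7 (r = 0.97), the enzyme of the last step of cholesterol synthesis, along with 4933404O12Rik and Dcaf4. Nearest to Scd2 were Ehd1 (r = 0.98), which serves endocytic recycling, Fads2 (0.96) and Ulk2 (0.96), a kinase of autophagy. Nearest to Fads2 were Slc7a6 (r = 0.96), an amino acid transporter, Scd2 at rank 2, and AW551984. Scd2 and Fads2 were thus closer to each other than Fads2 was to the nearby Fads1, which came at rank 363 with r = 0.73. Elovl5 came at rank 58 for Fads1 with r = 0.86, and Elovl4 was at most at r = 0.41 with any of the 4 desaturases.

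Promoter windows of RefSeq (GRCm38.p6, 250 bases before to 50 after a start site) were at hand for 7 of the 10 genes, namely Fads2, Elovl1, Elovl2, Elovl4, Elovl5, Elovl6 and Elovl7. They were searched on both strands for 4 motifs known from promoters of lipid genes or from promoters in general: an SRE-like element TCACNCCAC, bound by SREBP factors, the E-box CACGTG, the CCAAT box CCAAT and the GC box GGGCGG. The GC boxes of Elovl4 overlap each other, and no other matches in the windows printed do. The SRE-like letters were in 1.24% of all 32851 windows, the E-box in 7.15%, the CCAAT box in 37.4% and the GC box in 35.7%. Among the 9 windows of the members 0 held the SRE-like letters, 2 the E-box, 3 the CCAAT box and 6 the GC box. The windows of Fads2 and Elovl5, both higher in mean in NPC1-deficient cells, and of the steady Elovl4 are shown for comparison, 5′ to 3′ along the strand of the gene, with matches to any of the 4 motifs in capitals. That of Fads2 is chr19:10101454-10101753 (minus strand), that of Elovl5 chr9:77917115-77917414 (plus strand) and that of Elovl4 chr9:83806256-83806555 (minus strand).
Fads2: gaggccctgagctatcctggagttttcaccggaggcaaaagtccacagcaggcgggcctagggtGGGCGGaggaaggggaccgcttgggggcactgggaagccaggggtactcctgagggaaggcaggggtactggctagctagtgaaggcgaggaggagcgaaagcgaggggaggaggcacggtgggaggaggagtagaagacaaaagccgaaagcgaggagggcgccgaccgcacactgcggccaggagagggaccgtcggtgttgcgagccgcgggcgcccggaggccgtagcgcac
Elovl5: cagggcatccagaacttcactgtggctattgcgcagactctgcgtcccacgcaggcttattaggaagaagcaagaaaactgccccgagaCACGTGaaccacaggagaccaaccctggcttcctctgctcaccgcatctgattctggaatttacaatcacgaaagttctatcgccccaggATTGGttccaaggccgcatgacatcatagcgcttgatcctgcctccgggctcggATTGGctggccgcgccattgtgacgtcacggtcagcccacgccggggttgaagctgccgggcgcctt
Elovl4: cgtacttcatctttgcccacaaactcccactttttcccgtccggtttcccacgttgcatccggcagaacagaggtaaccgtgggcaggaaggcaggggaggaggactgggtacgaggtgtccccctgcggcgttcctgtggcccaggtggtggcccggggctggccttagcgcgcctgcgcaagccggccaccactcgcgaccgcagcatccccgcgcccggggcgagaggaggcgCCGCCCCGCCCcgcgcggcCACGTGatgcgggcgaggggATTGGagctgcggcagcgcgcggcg
The Elovl5 window holds an E-box beginning 161 bases before the start site and CCAAT boxes, both on the reverse strand, beginning 71 and 17 bases before it. In the Elovl4 window an E-box begins at base 6 and a reverse CCAAT box at base 26 after the start site, with overlapping reverse GC boxes beginning 14 and 9 bases before it. The Fads2 window holds a single GC box, 186 bases before the start site of that window. In the annotation used for gene positions Fads2 begins at 10101746, so nearly all of this window lies within the gene. A match is a description of letters, and no match says only that the letters are not in these windows.

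Partner genes of these enzymes gave no call in limma. A list of 47 genes was taken for the further family members, the other steps of the elongation cycle, electron supply, palmitate synthesis, acyl-CoA ligation, peroxisomal chain shortening and regulation, and 42 of them passed the filter on low values. With p-values adjusted over all genes tested, 0 of these 42 were called in either direction by limma or edgeR (0.039% of all genes higher and 0.065% lower with each). DESeq2 called 2 higher, Acsl3 and Insig1 (0.312% of all genes higher). At an unadjusted p under 0.05 there were 8, all higher (2.39% of all genes). The list had 27 positive and 15 negative fold changes, with a median of 0.0418 against 0.0050 over all genes tested, and the groups did not overlap for 8, all higher (1.86% of all genes). The plot of partner lists shows the 42 genes.

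**Figure D5:**
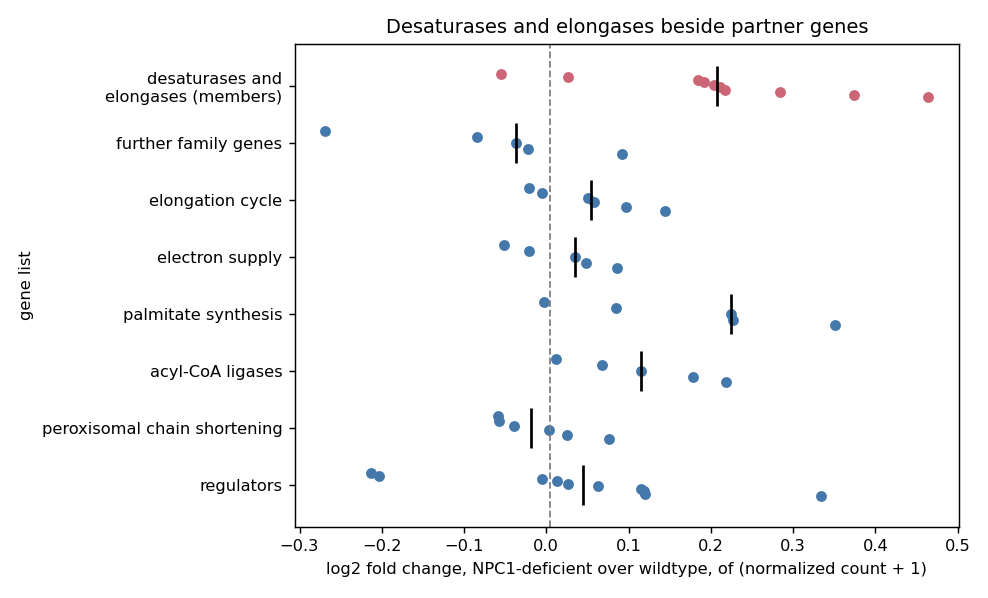
Log2 fold change of NPC1-deficient over wildtype libraries, on normalized count + 1, of the 10 desaturase and elongase genes (red) and of 42 partner genes (blue) by list, with a black line at each list's median and a dashed line at the median of all genes tested. The medians were 0.21 for the 10 genes, 0.22 for palmitate synthesis and 0.11 for acyl-CoA ligases, and between -0.0372 and 0.0547 for the other lists.

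Palmitate synthesis and acyl-CoA ligation lay nearest to the members. Fasn, the synthase that makes palmitate, stood at 6007, 4756, 6113 and 4805 in wildtype 1 to 4, against 7488, 7754, 5939 and 6451 in NPC1-deficient 1 to 4, a log2 fold change of 0.35 (SE 0.10, limma adjusted p = 0.263). NPC1-deficient 1, 2 and 4 were above all wildtype libraries and NPC1-deficient 3 was within their range. Acly, which makes cytosolic acetyl-CoA, had a log2 fold change of 0.23 (SE 0.07, limma adjusted p = 0.347). The acyl-CoA ligase genes Acsl3 and Acsl4, which activate long-chain fatty acids, had 0.22 (SE 0.05, limma adjusted p = 0.110) and 0.18 (SE 0.05, limma adjusted p = 0.218), and neither overlapped between groups. All 5 ligase genes had a positive fold change.

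In the elongation cycle, Tecr, the reductase of its last step, had a log2 fold change of 0.14 (SE 0.05, limma adjusted p = 0.529), and the 6 genes tested had a median of 0.0547. Electron supply (5 genes tested, median 0.0353) and peroxisomal chain shortening (6 genes, median -0.0181) were close to the median of all genes. The further family genes had 1 positive and 4 negative fold changes. Of these Fads3 was at 4089 ± 78.2 in wildtype and 4359 ± 155 in NPC1-deficient libraries (SD, n = 4), without overlap, and Scd3 at 325 ± 22.9 and 307 ± 31.5. Scd3 and Scd4 had fold changes of -0.0844 and -0.0222, where Scd1 had 0.46. The difference between these genes was not tested.

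Among the regulators Insig1, which holds SREBP factors in the endoplasmic reticulum and is itself one of their targets, was at 8542 ± 632 in wildtype and 10790 ± 1134 in NPC1-deficient libraries (SD, n = 4), without overlap. That is 0.33 in log2 units, with an SE of 0.08 and a limma adjusted p of 0.113. The SREBP genes themselves had fold changes of 0.06 (SE 0.11) for Srebf1 and 0.12 (SE 0.06) for Srebf2, with limma adjusted p values of 0.995 and 0.812. Of the 13 regulators 3, Mlxipl, Ppara and Pparg, did not pass the filter on low values.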

How the data were processed

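RNA was measured by sequencing 8 libraries of immunopanned retinal ganglion cells, prepared with a TruSeq kit per the labels' protocols. The submitters' processing notes name CASAVA 1.8.2, HTSeq 0.5.4p3, DESeq2 1.0.19 and mm10 without roles. The aligner is not given in the sources used here. Values deposited by the authors are a signal per gene, a read count divided by 1 size factor per library, as its values show. All 199536 values (100%) were whole reads within 1e-06 of a read, so counts could be recovered. A value of 0 allows up to 3 reads, a normalized 2.69 to 3.42 depending on the library, for counting error only.

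Libraries followed titles. Values were taken as log2(value + 1), which understates changes of low genes, and genes with a mean of at least 10 (15386) entered a fit in limma 3.58.1 (R 4.3.3; mean-variance trend, no covariate, Benjamini-Hochberg at 0.05 over all genes tested). Ratios were tested by exact permutation in SciPy 1.17.1. EdgeR 4.0.16 and DESeq2 1.42.0 on recovered reads were alternatives. The limma and edgeR fits were first tested on simulated data. There limma recovered 22% of 50 genes changed by 0.35 log2 units, 50% at 0.5, 78% at 1 and 100% at 2. A gene not called here is thus not shown to be unchanged. Alternatives were a pseudocount of 0.5 or 5, a minimum of 50 or none, scaling by quantiles or the upper quartile, robust moderation, a replicate block, the library set (1 and 2 against 3 and 4) as a term, each set alone, each library left out, libraries numbered 1 left out together, and rod or microglial level as a term. Positions and lengths came from GENCODE M21, on the build of mm10, in which 24471 of 24942 identifiers (98.1%) were found.

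The members and lists were chosen with earlier results of these data known. All members were named. Of the partner list the 6 genes with the smallest p were named by rule, and Fads3, Scd3, Scd4, Srebf1, Srebf2 and the untested regulators were added after values were seen. For the 4 desaturases the 3 genes of most similar profile were named.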

Additional observations from a re-analysis of the deposited data

Results flagged for a closer look

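Npc1 in NPC1-deficient 1, at 140 normalized reads, lay far from the other 3 libraries of its group (66.1 to 70.05). Of 22 groups of 4 libraries checked this was the single one with such a gap, and chance gives about 1 in 20. The difference of Elovl2 between genotypes went opposite ways in the 2 library sets. Both NPC1-deficient libraries lay below both wildtype ones among libraries 1 and 2 (log2 fold change -0.32) and above them among libraries 3 and 4 (0.21). However, NPC1-deficient 2 and wildtype 2 were nearly level (1218 and 1221), and only NPC1-deficient 1 and wildtype 1 stood well apart (910 and 1407). The interaction had a limma adjusted p of 0.234, and the cause was not tested.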

How the results depend on the processing

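The median log2 fold change of the 10 members, 0.21, ran from 0.15 to 0.28 over 24 alternatives, and Npc1 stayed past the threshold in all 24. The number of members called higher, 1 in the comparison as reported, was 2 with no filter, with upper-quartile scaling and with the library set as a term, 3 in libraries 3 and 4 alone and without both libraries numbered 1, and 4 with DESeq2. It was 0 in libraries 1 and 2 alone and with the rod or the microglial level as a term. Leaving out single libraries gave 0 to 3, and 0 members were called lower under any alternative. Fads1 was called in 15 of the 24 alternatives, Scd1 in 8 and Fads2 in 4, and the cause was not tested.

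Of the partner genes 1 was called higher with the library set as a term and without both libraries numbered 1, and 2 in libraries 3 and 4 alone and with DESeq2. Their median, 0.0418, was 0.0917 in libraries 1 and 2, 0.0185 in libraries 3 and 4, 0.0815 with a rod term, 0.0739 with a microglial term, and 0.0229 to 0.0543 with single libraries left out.

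Over all genes 6 were called higher and 10 lower. The counts higher and lower were 28 and 71 with the library set as a term, 97 and 238 in libraries 3 and 4, 29 and 141 without both libraries numbered 1, 1 and 72 with the rod level and 48 and 198 with DESeq2. The count lower was 5 at a minimum of 50, 49 in libraries 1 and 2 and 62 with the microglial level. With single libraries left out 0 to 17 were called higher and 2 to 131 lower.

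Directions turned for members that were never called. Elovl4 was at -0.0031 with quantile scaling, -0.0071 in libraries 3 and 4 and -0.0095 with the rod level. Elovl2 was at 0.21 in libraries 3 and 4, 0.083 without NPC1-deficient 1 and 0.14 without both libraries numbered 1. With the rod level Elovl1 was at -0.21 and Elovl7 at -0.13. The ratio of Elovl6 to Scd2 ran from -0.0622 (without NPC1-deficient 1) to 0.0939 with single libraries left out.

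With the replicate number as a block 0 members were called higher (Fads1 limma adjusted p = 0.0545) and 26 genes lower in all. No pairing by number was seen: deviations of same-numbered libraries from their group means correlated at -0.0659 to -0.0169 over genes. Differences particular to single libraries can hide a pairing, so these values cannot exclude one.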
